A study of Mus musculus with 12 samples.

Results

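The immediate early transcription factors described here are 10 genes of 3 families: Fos, Fosb, Jun and Junb (AP-1), Egr1, Egr2 and Egr3 (EGR), and Nr4a1, Nr4a2 and Nr4a3 (NR4A). They were matched by symbol to the rows of a table of log2 array intensities, and each of the 10 had exactly 1 row, among 22180 genes tested. Immediate early genes are transcribed within minutes of a stimulus without new protein synthesis, and their transcripts are short-lived. In T cells, signalling through the antigen receptor switches on all 3 families: AP-1 dimers bind DNA together with NFAT, EGR proteins are zinc finger factors, and NR4A proteins are nuclear receptors without a known natural ligand. EGR2, EGR3 and the NR4A proteins are also known for restraining T cell responses, and Nr4a1 is widely used as a reporter of receptor signalling.

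Splenic CD4+ T cells of 8-week-old Foxp3.eGFP mice on the C57BL/6 background, whose Foxp3-expressing cells carry a green reporter, were measured on 12 arrays. They were sorted by the reporter into Foxp3+ regulatory (Treg) and Foxp3- effector (Teff) cells. The sort followed 3 days of culture with antibodies to CD3 and to CD28 at 2 µg/ml each (anti-CD3-CD28) or with the soluble ligands OX40L at 5 µg/ml and JAG1 at 1 µg/ml (OX40L-JAG1), and control cells were taken fresh. Anti-CD3 and anti-CD28 engage the T cell receptor complex and its costimulatory receptor, whereas OX40L and JAG1 are ligands of the receptor OX40 and of Notch. The series thus sets culture with stimulation of the T cell receptor beside culture with ligands of other receptors. This made 6 groups of 2 arrays, called replicates 1 and B. All groups carry the reporter allele. Control cells were not cultured, so the effects of culture and of the ligands or antibodies cannot be told apart in a comparison with control. No label tells whether replicates came from different mice or cultures, so the p-values speak only for the spread among these 12 samples, and that spread may be technical. In such sorted populations, fewer cells of a type and less RNA per cell cannot be told apart.

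The sort was checked with Foxp3, whose mean log2 intensity was 11.12, 10.78 and 10.37 in anti-CD3-CD28, OX40L-JAG1 and control Treg cells, against 5.65, 6.58 and 5.66 in the matching Teff cells. Both OX40L-JAG1 Teff arrays stood apart: their SD over genes was 1.49 and 1.71, against 1.95 to 2.19 on the other 10 arrays, and the correlation between them was 0.881, against 0.984 to 0.994 in the other groups. Marker genes of several other cell types, though not of B cells, were also higher there. The summed linear intensity of 5 neutrophil markers was 3901 to 8049 on those arrays, against 141 to 155 in control Teff cells, that of 5 T cell markers was 3471 to 5968 against 14065 to 15064, and 4 of the 5 T cell markers fell in the test. In OX40L-JAG1 Treg cells the neutrophil sum was 1310 to 1602, against 75 to 77 in control Treg cells, and the T cell sum was 11263 to 11456 against 11083 to 12552. The summed intensity of the 2 measured platelet genes, Ppbp and Pf4, was 135 to 139 in anti-CD3-CD28 Treg cells and 365 to 461 in OX40L-JAG1 Treg cells, against 27 to 31 in control Treg cells. It was 326 to 329 in anti-CD3-CD28 Teff cells and 171 to 861 in OX40L-JAG1 Teff cells, against 35 to 36 in control Teff cells. The sum of 5 basophil and mast cell markers was 1323 to 2950 in OX40L-JAG1 Teff cells, against 177 to 185 in control Teff cells. That of 5 myeloid and dendritic markers was 717 to 1456 against 129 to 130, and that of 4 B cell markers 197 to 305 against 327 to 332. In OX40L-JAG1 Treg cells the basophil and mast cell sum was 640 to 792, against 77 to 85 in control Treg cells. The myeloid and dendritic sum was 585 to 615 against 91 to 105. The part of these cells in the results below was not tested. Counts of called genes are also given without both OX40L-JAG1 Teff arrays in comparisons that do not need them.

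All 10 factors had group means above 4.87, the lowest median of any array. Tests used limma with 1 mean per group over the 12 arrays, 2-sided p-values with Benjamini-Hochberg adjustment over all 22180 genes of a comparison, and a threshold of 0.05 on the adjusted p. Changes are differences of log2 intensity ± SE. Levels of different genes come from different probes and are not compared with each other.

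In anti-CD3-CD28 Treg cells 5 of the 10 factors fell relative to control Treg cells: Fos, Fosb, Jun, Egr2 and Nr4a1. Among all genes, 1.97% fell in this comparison. Fos, whose protein dimerises with JUN proteins, measured 9.28 and 9.10 in anti-CD3-CD28 Treg cells, against 10.63 and 10.68 in control Treg cells. Fosb, its close relative, measured 7.50 and 7.56 in anti-CD3-CD28 Treg cells, against 8.73 and 8.93 in control Treg cells. In both genes the treated arrays lay below both control arrays. Fos fell by 1.46 ± 0.24 (adjusted p = 0.0019) and Fosb by 1.30 ± 0.22 (adjusted p = 0.0024), and both were called under every alternative setting run, with each array left out in turn among them.

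Jun, the central AP-1 subunit, measured 10.05 and 9.71 in anti-CD3-CD28 Treg cells, against 10.92 and 10.68 in control Treg cells, and fell by 0.92 ± 0.24 (adjusted p = 0.0304). Egr2, a factor tied to T cell unresponsiveness, measured 6.12 and 5.94 in anti-CD3-CD28 Treg cells, against 6.89 and 7.03 in control Treg cells, and fell by 0.93 ± 0.27 (adjusted p = 0.0491). Nr4a1 measured 8.58 and 8.28 in anti-CD3-CD28 Treg cells, against 9.28 and 9.07 in control Treg cells, and fell by 0.74 ± 0.20 (adjusted p = 0.0364). The arrays of the groups did not overlap in these 3 genes, but their calls depended on the setting. The replicate block ended those of Egr2 (adjusted p = 0.0645) and Nr4a1 (adjusted p = 0.0515), and quantile normalization that of Egr2 (adjusted p = 0.219). With any 1 array of the anti-CD3-CD28 Treg, OX40L-JAG1 Treg, control Treg or control Teff groups left out, 2 of the 10 factors were called. With both OX40L-JAG1 Teff arrays left out 6 were called, Nr4a2 joining with an adjusted p of 0.0331, while 6.75% of all genes fell.

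The other 5 factors did not pass the test in anti-CD3-CD28 Treg cells. Junb, an AP-1 subunit that partners with BATF in T cells, measured 9.51 and 9.30 in anti-CD3-CD28 Treg cells, against 9.50 and 9.55 in control Treg cells. Its difference was -0.12, with a 95% interval from -0.76 to 0.53. Nr4a3 measured 7.89 and 7.97 in anti-CD3-CD28 Treg cells, against 7.67 and 7.74 in control Treg cells. It was the only factor of the 10 with a positive difference (0.23, interval -0.34 to 0.79, adjusted p = 0.684). After quantile normalization its difference was -0.13 (adjusted p = 0.922). Egr1 (-0.69 ± 0.27, adjusted p = 0.149), Egr3 (-0.34 ± 0.21, adjusted p = 0.396) and Nr4a2 (-0.73 ± 0.24, adjusted p = 0.0869) completed the set. The median over the 10 factors was -0.73, against -0.0477 over all genes.

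**Figure D1:**
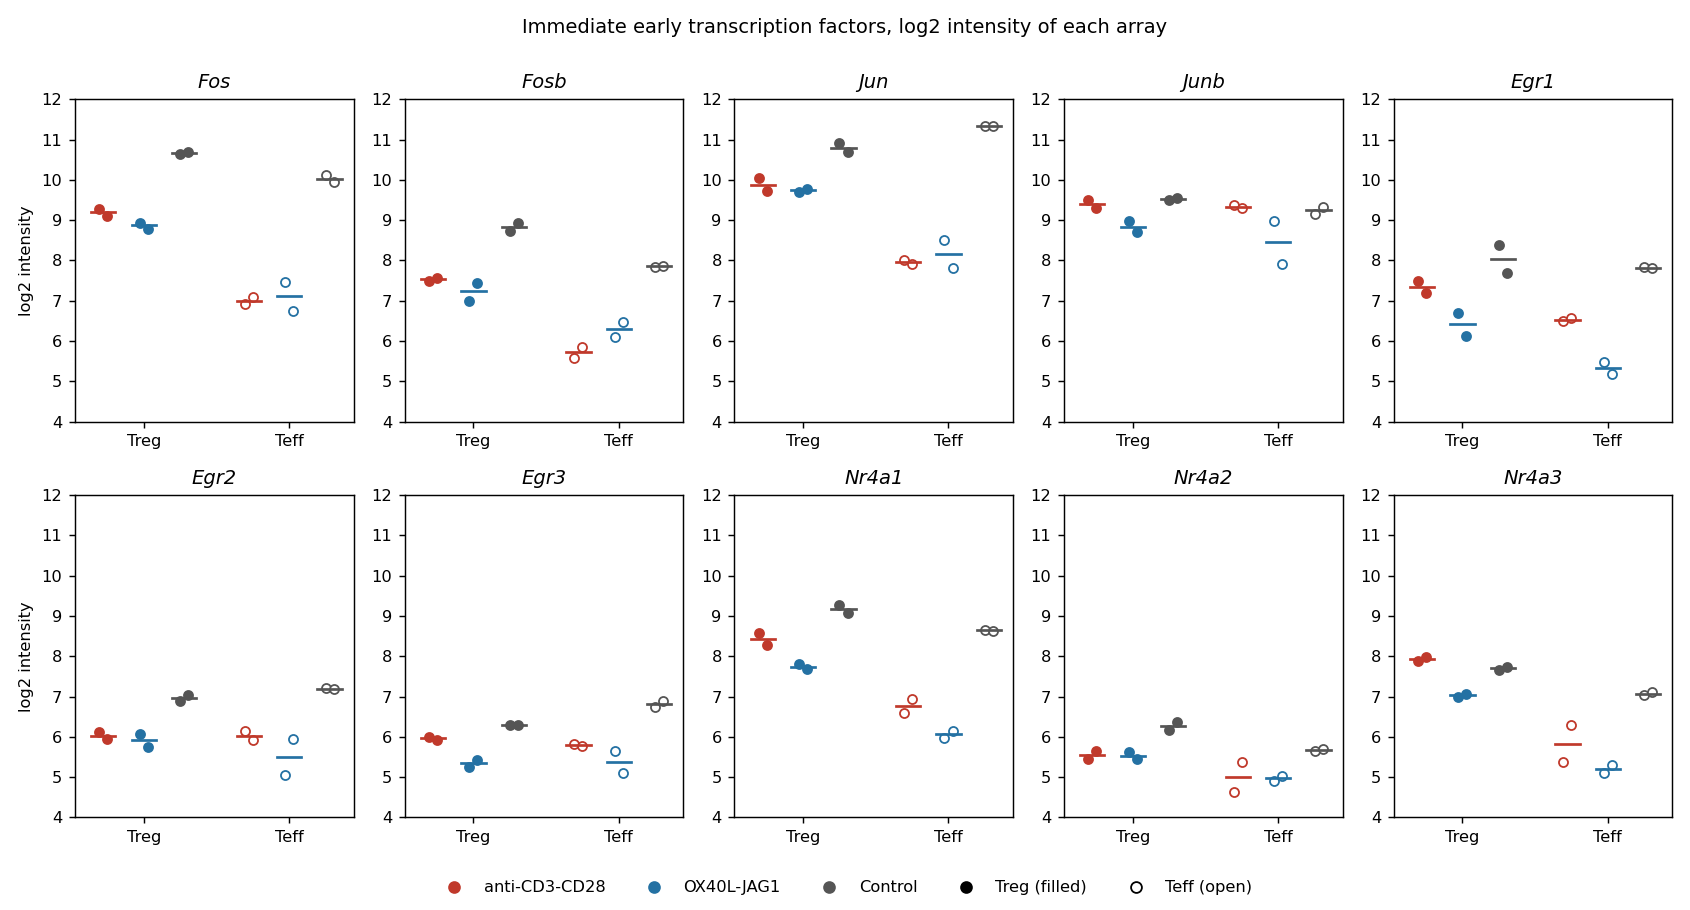
Log2 intensity of the 10 factors on each of the 12 arrays, 1 panel per gene, with points for single arrays, lines for group means, filled for Treg and open for Teff cells, and groups ordered anti-CD3-CD28, OX40L-JAG1, control. In Fos, Fosb, Jun and Nr4a1 the treated Teff arrays sit lowest, the treated Treg arrays in between and the control arrays highest, while Junb spans only 1.64 log2 units over all arrays.

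In OX40L-JAG1 Treg cells 5 of the 10 factors also fell relative to control Treg cells: Fos, Fosb, Egr1, Egr3 and Nr4a1, where 0.559% of all genes fell. Fos measured 8.94 and 8.79 in OX40L-JAG1 Treg cells, against 10.63 and 10.68 in control Treg cells (-1.79 ± 0.24, adjusted p = 0.00289). Fosb measured 7.0 and 7.45 in OX40L-JAG1 Treg cells, against 8.73 and 8.93 in control Treg cells (-1.61 ± 0.22, adjusted p = 0.0034). Egr1, a zinc finger factor induced through the MAP kinase pathway, measured 6.69 and 6.13 in OX40L-JAG1 Treg cells, against 8.38 and 7.68 in control Treg cells (-1.62 ± 0.27, adjusted p = 0.0108). Its control arrays were further apart than those of the other factors, and all treated arrays still lay below them. Nr4a1 measured 7.80 and 7.69 in OX40L-JAG1 Treg cells, against 9.28 and 9.07 in control Treg cells (-1.43 ± 0.20, adjusted p = 0.00401). Egr3, a relative of Egr2 with overlapping roles, measured 5.26 and 5.42 in OX40L-JAG1 Treg cells, against 6.30 and 6.30 in control Treg cells (-0.96 ± 0.21, adjusted p = 0.0465). The call of Egr3 was lost with the replicate block (adjusted p = 0.0677), after quantile normalization (adjusted p = 0.156) and in all but 2 of the 12 fits that left out an array.

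The other 5 had negative differences in OX40L-JAG1 Treg cells that did not pass: Jun (-1.06, adjusted p = 0.0547, and 0.0471 with the block or 0.0144 after quantile normalization), Egr2 (-1.05, adjusted p = 0.10), Nr4a2 (-0.75, adjusted p = 0.222), Junb (-0.68, adjusted p = 0.45) and Nr4a3 (-0.67, adjusted p = 0.364). The OX40L-JAG1 Teff arrays, whose spread enters the shared error, changed these calls. Without both of them 8 of the 10 fell, with Jun (adjusted p = 0.00242), Egr2 (adjusted p = 0.00291) and Junb (adjusted p = 0.0272) added, while 2.01% of all genes fell. The count was 8 without either single OX40L-JAG1 Teff array. It was 1 without OX40L-JAG1 Treg replicate B, 2 without control Treg replicate 1 and 3 without control Treg replicate B. The median over the 10 was -1.05, against -0.00762 over all genes. This comparison and the one with anti-CD3-CD28 share the control Treg arrays.

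Set against each other, Treg cells of the anti-CD3-CD28 and of the OX40L-JAG1 cultures differed in 0 of the 10 factors by limma, where 5.91% of all genes were called. All 10 differences were positive as deposited. After quantile normalization those of Egr2 (-0.0336) and Nr4a2 (-0.0343) were negative and the others positive. Fos (0.102), Fosb (0.051) and Jun (0.0143) were then near 0, and Egr1 (adjusted p = 0.345) and Nr4a1 (adjusted p = 0.561) did not pass. The 4 largest were those of Egr1 (0.93 ± 0.27, adjusted p = 0.0717), Nr4a3 (0.89 ± 0.26, adjusted p = 0.0722), Nr4a1 (0.69 ± 0.20, adjusted p = 0.0736) and Egr3 (0.62 ± 0.21, adjusted p = 0.128). The arrays of the groups did not overlap in these 4, nor in Fos, Fosb and Junb, and the share of all genes without overlap was not taken. Without both OX40L-JAG1 Teff arrays these 4 and Junb (0.57) were higher in anti-CD3-CD28 Treg cells, with adjusted p from 0.0127 to 0.0334, while 9.89% of all genes were higher. Leaving out either single OX40L-JAG1 Teff array also gave 5, and either anti-CD3-CD28 Teff array 1. Fos, Fosb and Jun, the main AP-1 factors, differed by 0.33, 0.30 and 0.14, with 95% intervals that ran from -0.38 at the lowest to 0.84 at the highest.

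In anti-CD3-CD28 Teff cells 8 of the 10 factors fell relative to control Teff cells, all but Junb and Nr4a2, where 9.75% of all genes fell. The T cell marker sum was 7483 to 7549 in anti-CD3-CD28 Teff cells, against 14065 to 15064 in control Teff cells, and 3 of its 5 genes fell. Of 4 measured B cell markers 3 fell as well (summed intensity 133 to 146, against 327 to 332), and Ppbp and Pf4 rose. The part of these shifts in the result was not tested. Jun measured 8.01 and 7.91 in anti-CD3-CD28 Teff cells, against 11.34 and 11.33 in control Teff cells, a difference of -3.37 ± 0.24 or 10.4-fold (adjusted p = 1.08e-05). Fos measured 6.92 and 7.09 in anti-CD3-CD28 Teff cells, against 10.12 and 9.95 in control Teff cells, a difference of -3.03 ± 0.24 or 8.17-fold (adjusted p = 1.64e-05). Fosb measured 5.58 and 5.86 in anti-CD3-CD28 Teff cells, against 7.84 and 7.85 in control Teff cells (-2.13 ± 0.22, adjusted p = 9.57e-05). In each of these 3 AP-1 genes all treated arrays lay well below all control arrays, with no overlap. Junb did not share this: it measured 9.37 and 9.29 in anti-CD3-CD28 Teff cells and 9.16 and 9.32 in control Teff cells, with overlapping arrays and a difference of 0.09 (95% interval -0.56 to 0.73).

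The NR4A and EGR factors had smaller changes in anti-CD3-CD28 Teff cells. Nr4a1 measured 6.60 and 6.94 in anti-CD3-CD28 Teff cells, against 8.66 and 8.62 in control Teff cells (-1.87 ± 0.20, adjusted p = 0.000131). Nr4a3, which overlaps in function with Nr4a1, measured 5.38 and 6.29 in anti-CD3-CD28 Teff cells, against 7.04 and 7.11 in control Teff cells (-1.24 ± 0.26, adjusted p = 0.00719), with its treated arrays further apart than its control arrays. Egr1 fell by 1.28 ± 0.27, Egr2 by 1.16 ± 0.27 and Egr3 by 1.02 ± 0.21, with adjusted p from 0.0062 to 0.0125 and no overlap between the arrays, but Egr2 (adjusted p = 0.222) and Egr3 (adjusted p = 0.0634) did not pass after quantile normalization. Nr4a2 measured 4.62 and 5.37 in anti-CD3-CD28 Teff cells and 5.64 and 5.69 in control Teff cells (-0.67 ± 0.24, adjusted p = 0.0882). With both OX40L-JAG1 Teff arrays left out it passed (adjusted p = 0.0367), 9 of the 10 fell, and so did 16.5% of all genes. The count was 4 without control Teff replicate B, 5 without control Teff replicate 1 and 5 without anti-CD3-CD28 Teff replicate 1, and Fos, Fosb, Jun and Nr4a1 were called in every one of those fits. The median over the 10 was -1.26, against 0.0678 over all genes.

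In OX40L-JAG1 Teff cells all 10 factors fell relative to control Teff cells, on arrays where 26.9% of all genes fell and where the T cell marker sum was also lower. Jun measured 8.50 and 7.81 in OX40L-JAG1 Teff cells, against 11.34 and 11.33 in control Teff cells (-3.18 ± 0.24, adjusted p = 1.63e-05). Fos measured 7.47 and 6.75 in OX40L-JAG1 Teff cells, against 10.12 and 9.95 in control Teff cells (-2.93 ± 0.24, adjusted p = 2.18e-05). The treated replicates differed from each other more than the control replicates did in both genes, and all lay far below the control arrays. Nr4a1 measured 5.97 and 6.15 in OX40L-JAG1 Teff cells, against 8.66 and 8.62 in control Teff cells (-2.58 ± 0.20, adjusted p = 1.84e-05). Egr1 measured 5.49 and 5.18 in OX40L-JAG1 Teff cells, against 7.83 and 7.80 in control Teff cells (-2.48 ± 0.27, adjusted p = 6.81e-05). These were the lowest Egr1 arrays of the series. Nr4a3 (-1.88), Egr2 (-1.70), Fosb (-1.56), Egr3 (-1.45), Junb (-0.79) and Nr4a2 (-0.70) followed, with adjusted p from 0.000233 to 0.0451. Junb was called in 1 and Nr4a2 in 9 of the 12 fits that left out an array. The median over the 10 was -1.79, against 0.177 over all genes. Quantile normalization moved several of the changes: Fos to -1.94, Jun to -2.26, Nr4a1 to -1.86 and Egr1 to -2.36, all 4 still called, but Fosb to -0.71 (adjusted p = 0.136), Egr2 to -1.29 (adjusted p = 0.0552) and Junb to a positive 0.30 (adjusted p = 0.302).

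Between the cultured Teff groups, 3 of the 10 factors were higher in anti-CD3-CD28 than in OX40L-JAG1 Teff cells, where 18.9% of all genes were higher. They were Egr1 (1.19 ± 0.27, adjusted p = 0.00789), Junb (0.88 ± 0.29, adjusted p = 0.0455) and Nr4a1 (0.71 ± 0.20, adjusted p = 0.0222). Fos (-0.10) and Jun (-0.19) did not pass, with 95% intervals of -0.62 to 0.41 and -0.71 to 0.33. None of the 3 calls held with array weights. Leaving out anti-CD3-CD28 Teff replicate B gave 0, leaving out replicate 1 of OX40L-JAG1 Teff cells gave 5, and it was 2 without any 1 array of the control Teff, control Treg, OX40L-JAG1 Treg or anti-CD3-CD28 Treg groups. After quantile normalization Fos (-0.88, adjusted p = 0.00846), Jun (-1.09, adjusted p = 0.00408) and Fosb (-1.23, adjusted p = 0.0265) were lower in anti-CD3-CD28 Teff cells, while Nr4a1 (0.23, adjusted p = 0.551) and Junb (-0.00803, adjusted p = 0.982) were no longer called higher. Thus the size and the calls of the AP-1 differences between the cultured Teff groups depended on the scaling. Fos, Jun and Fosb (-0.57 as deposited) were negative either way, while Junb went from 0.88 to -0.00803.

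**Figure D2:**
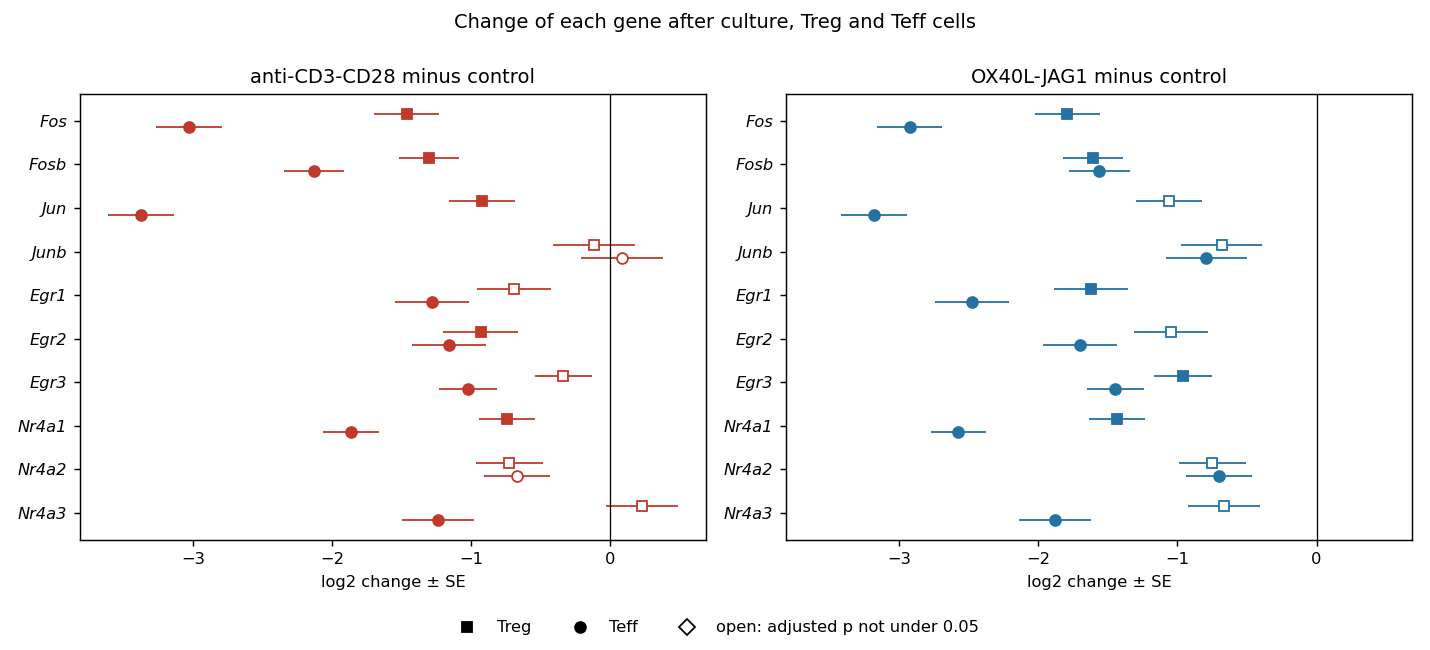
Log2 change of each factor against the control cells of the same type, with the SE as bars and open symbols for changes that did not pass the limma test, for anti-CD3-CD28 and OX40L-JAG1 cultures. The most negative changes are those of Jun and Fos in Teff cells, -3.37 and -3.03 with anti-CD3-CD28 and -3.18 and -2.93 with OX40L-JAG1, while Junb stays near 0 with anti-CD3-CD28.

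Fresh Treg and fresh Teff cells differed in 1 of the 10 factors by the test. Fosb was the 1 that passed, at 8.73 and 8.93 in control Treg cells and 7.84 and 7.85 in control Teff cells (0.99 ± 0.22, adjusted p = 0.0293), where 1.34% of all genes were higher and 3.85% were called either way. With array weights 7 of the 10 were called, and the share of all genes called under that setting is not given here. The call of Fosb was lost without any 1 array of the control Treg, control Teff or anti-CD3-CD28 Treg groups, which left 0 of the 10, and after quantile normalization (adjusted p = 0.102). Jun went the other way, with 10.92 and 10.68 in control Treg cells and 11.34 and 11.33 in control Teff cells (-0.53 ± 0.24, adjusted p = 0.287). Without both OX40L-JAG1 Teff arrays, or without either of them, 4 of the 10 were called. With both left out, Fosb and Fos (0.62, adjusted p = 0.0191) were higher and Jun (adjusted p = 0.0482) and Egr3 (-0.52, adjusted p = 0.0329) lower in control Treg cells, and 14.5% of all genes were called.

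In the fit without array weights, more of the factors were called between the cell types after culture than in control cells. With array weights this was not so. Then Fos, Fosb, Jun, Egr1, Nr4a1 and Nr4a3 were called with anti-CD3-CD28 and Fos, Jun, Nr4a1 and Nr4a3 with OX40L-JAG1, against 7 factors in control cells. In anti-CD3-CD28 cultures 5 of the 10 factors were higher in Treg than in Teff cells, where 9.03% of all genes and 2 of the 5 T cell markers were higher. Fos measured 9.28 and 9.10 in anti-CD3-CD28 Treg cells, against 6.92 and 7.09 in anti-CD3-CD28 Teff cells (2.19 ± 0.24, 4.56-fold, adjusted p = 0.000252). Nr4a3 measured 7.89 and 7.97 in anti-CD3-CD28 Treg cells, against 5.38 and 6.29 in anti-CD3-CD28 Teff cells (2.10 ± 0.26, 4.27-fold, adjusted p = 0.000587). Jun (1.92 ± 0.24), Fosb (1.81 ± 0.22) and Nr4a1 (1.66 ± 0.20) were the others, with adjusted p from 0.000515 to 0.000601. These 5 calls held under every alternative setting run, quantile normalization and each array left out among them. Leaving out both OX40L-JAG1 Teff arrays added Egr1 (0.81, adjusted p = 0.0259), while 18.2% of all genes were higher. The EGR factors Egr2 and Egr3 were close: Egr2 measured 6.12 and 5.94 in anti-CD3-CD28 Treg cells, against 6.14 and 5.92 in anti-CD3-CD28 Teff cells, with an interval of the difference from -0.59 to 0.58, and Egr3 differed by 0.17 (interval -0.29 to 0.62).

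In OX40L-JAG1 cultures 6 of the 10 factors were higher in Treg than in Teff cells, where 24.6% of all genes were higher and 4 of the 5 T cell markers were too. They were Nr4a3 (1.84 ± 0.26), Fos (1.76 ± 0.24), Nr4a1 (1.68 ± 0.20), Jun (1.59 ± 0.24), Egr1 (1.07 ± 0.27) and Fosb (0.94 ± 0.22), with adjusted p from 0.000166 to 0.0092. Nr4a3 measured 7.0 and 7.07 in OX40L-JAG1 Treg cells, against 5.10 and 5.29 in OX40L-JAG1 Teff cells. The arrays of the cell types did not overlap. The comparison rests on the arrays that stand apart. After quantile normalization Nr4a3 (1.87), Egr1 (1.12), Nr4a1 (1.02) and Fos (0.75) were still called higher, Jun (0.50, adjusted p = 0.085) and Fosb (0.19, adjusted p = 0.717) were not, and Junb was lower (-0.67, adjusted p = 0.0399), against 0.39 as deposited.

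**Figure D3:**
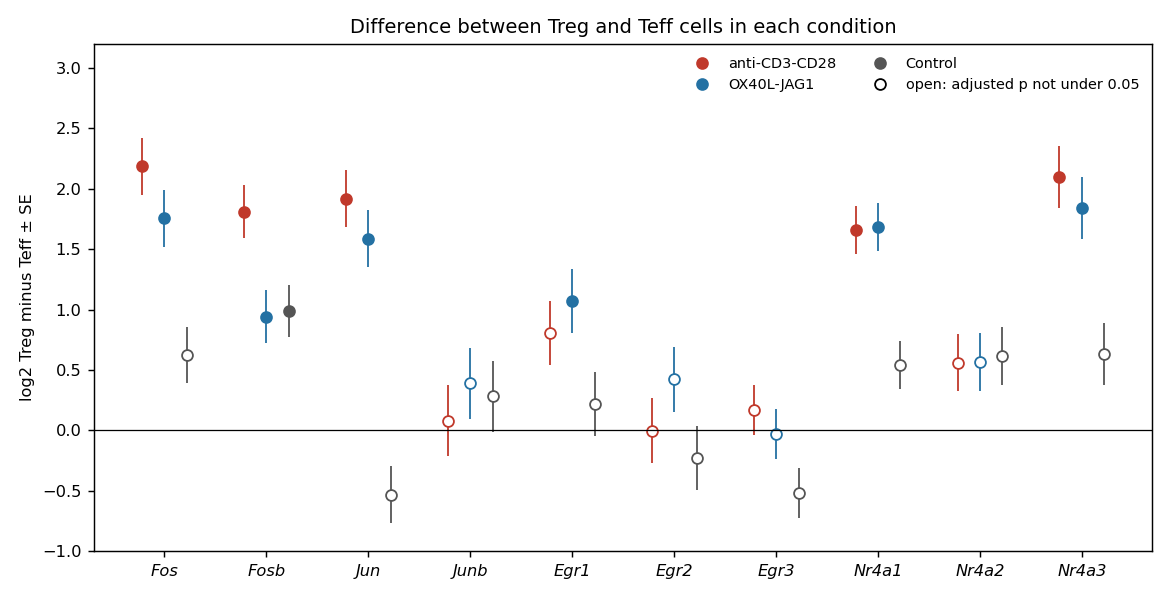
Treg minus Teff difference of each factor in log2 intensity, with the SE as bars, in anti-CD3-CD28, OX40L-JAG1 and control cells, with open symbols where the limma test did not pass. Fos, Jun, Nr4a1 and Nr4a3 differ by 1.59 to 2.19 after culture and by -0.53 to 0.63 in control cells.

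The difference between the responses was tested as an interaction, the response of Treg cells minus that of Teff cells, so that a positive value means a smaller fall in Treg cells where both fell. With anti-CD3-CD28 it was positive and called in 4 of the 10 factors, Jun, Fos, Nr4a3 and Nr4a1, against 10.1% of all genes and 3 of the 5 T cell markers. Jun changed by -0.92 in Treg and by -3.37 in Teff cells, an interaction of 2.45 ± 0.34 (adjusted p = 0.0015). Fos changed by -1.46 in Treg and by -3.03 in Teff cells, an interaction of 1.57 ± 0.33 (adjusted p = 0.0123). Nr4a3 (1.47 ± 0.36, adjusted p = 0.024) and Nr4a1 (1.12 ± 0.28, adjusted p = 0.0255) followed. Without both OX40L-JAG1 Teff arrays, or without either of them, 6 were called: with both left out Fosb (0.83, adjusted p = 0.0294) and Egr3 (0.69, adjusted p = 0.0249) joined, while 20% of all genes were positive. The count was 1 without control Teff replicate 1, anti-CD3-CD28 Teff replicate 1 or anti-CD3-CD28 Treg replicate 1, and 2 without control Teff replicate B, control Treg replicate B or anti-CD3-CD28 Treg replicate B. After quantile normalization Jun (2.21) and Fos (1.02, adjusted p = 0.0436) remained called, and Nr4a3 (0.95, adjusted p = 0.236) and Nr4a1 (0.57, adjusted p = 0.452) did not.

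With OX40L-JAG1 the interaction was positive and called in 4 of the 10 factors, against 21.3% of all genes: Jun (2.12 ± 0.34, adjusted p = 0.00119), Nr4a3 (1.21 ± 0.36, adjusted p = 0.027), Nr4a1 (1.14 ± 0.28, adjusted p = 0.0112) and Fos (1.13 ± 0.33, adjusted p = 0.0247). Both interactions use the control arrays of both cell types. Of the 5 T cell markers, 3 had a positive interaction too. Quantile normalization took Fos to 0.04 (adjusted p = 0.939), Nr4a1 to 0.38 (adjusted p = 0.535) and Nr4a3 to 1.11 (adjusted p = 0.103), and kept Jun at 1.10 (adjusted p = 0.0253). It took Junb to -1.10, which was called in the opposite direction (adjusted p = 0.0322). Array weights left 2 of the 10 called, and so did the fits without any 1 array of the control Teff or OX40L-JAG1 Treg groups or without control Treg replicate B. The count was 7 without OX40L-JAG1 Teff replicate 1. Jun kept its call in both interactions under every alternative run. As deposited, Nr4a2 had an interaction of -0.05 with both treatments and Junb of -0.20 with anti-CD3-CD28 and 0.11 with OX40L-JAG1, none of them called, with 95% intervals as wide as -1.11 to 0.71.

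No order of the 6 groups was common to all 10 factors. Fos, Fosb and Nr4a1 were highest in control Treg cells, followed by control Teff cells, Treg cells cultured with anti-CD3-CD28 and those cultured with OX40L-JAG1, with both cultured Teff groups last. The means of Nr4a2 had this order too, with overlapping arrays. Jun differed in having its highest level in control Teff cells (mean 11.33) and not in control Treg cells, and its cultured Treg groups overlapped. Nr4a3 alone was highest in anti-CD3-CD28 Treg cells (7.89 and 7.97), whose arrays lay above those of control Treg cells (7.67 and 7.74) without passing the test. That holds for the values as deposited, since the difference was -0.13 after quantile normalization. Egr2 and Egr3 were highest in control Teff cells, and the 4 cultured groups of Egr2 could not be ordered beyond their spread. In Egr1 the mean of anti-CD3-CD28 Teff cells (6.53) lay above that of OX40L-JAG1 Treg cells (6.41), with overlapping arrays. In Junb the means of both anti-CD3-CD28 groups (9.40 in Treg and 9.33 in Teff cells) lay above that of control Teff cells (9.24), also with overlap. Over the 12 arrays Fos spanned 3.94 log2 units, a wider range than 98.8% of the genes, and Junb 1.64, wider than 64.3%.

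Across the 12 arrays the families were not separate blocks. Pearson correlations of log2 values were 0.95 for Fos with Fosb, 0.96 for Fos with Jun and also 0.96 for Fos with Nr4a1, a gene of another family. Within the EGR family they were 0.80 to 0.82 and within the NR4A family 0.83 to 0.92. The 33 pairs between families ranged from 0.41 to 0.96 with a median of 0.76. Junb was least like its own family, at 0.37 with Fosb, 0.47 with Jun and 0.54 with Fos, and its highest correlation was with Egr1 (0.77). Without the OX40L-JAG1 Teff arrays Fos and Nr4a1 were at 0.98 and Junb and Jun at 0.11. The 12 arrays share 6 groups of 2, so these values describe group patterns and carry no p. The genes outside the 10 most like Fos were Ephx1 (0.977), Dusp1 (0.973), P2rx7 (0.967) and Mapk11 (0.966), of 13073 genes compared. Those most like Egr1 were Esf1 (0.968), Ppp1r15a (0.960), Myc (0.959) and Slc29a1 (0.944), and those most like Nr4a1 were Rnf149 (0.979), Mapk11 (0.957), Slc29a1 (0.956) and Cd5 (0.955).

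Because members of different families moved together, the promoters were read for shared motifs. The RefSeq promoter table (GRCm38.p6, 250 bases before to 50 after each start) held 8 of the 10 genes, with 5 entries for Egr2. Egr1 and Egr3 had no entry. The sequences of Fos and Jun, which had the most negative changes in Teff cells, and of the 3 NR4A genes, which share a dense motif, are printed 5′ to 3′ on the strand of the gene, with TGACG (the core of a cAMP response element, searched on both strands, so also CGTCA) in capitals. This motif was added after the sequences had been seen. The coordinates are chr12:85473640-85473939 (plus strand) for Fos, chr4:95052173-95052472 (minus) for Jun, chr15:101266596-101266895 (plus) for Nr4a1, chr2:57123954-57124253 (minus) for Nr4a2 and chr4:48045055-48045354 (plus) for Nr4a3.
Fos: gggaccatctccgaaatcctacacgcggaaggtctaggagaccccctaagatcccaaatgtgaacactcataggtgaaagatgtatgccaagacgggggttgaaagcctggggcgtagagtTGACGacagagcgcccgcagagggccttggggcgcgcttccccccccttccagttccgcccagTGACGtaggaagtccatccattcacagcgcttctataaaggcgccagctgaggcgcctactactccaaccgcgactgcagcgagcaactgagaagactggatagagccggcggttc
Jun: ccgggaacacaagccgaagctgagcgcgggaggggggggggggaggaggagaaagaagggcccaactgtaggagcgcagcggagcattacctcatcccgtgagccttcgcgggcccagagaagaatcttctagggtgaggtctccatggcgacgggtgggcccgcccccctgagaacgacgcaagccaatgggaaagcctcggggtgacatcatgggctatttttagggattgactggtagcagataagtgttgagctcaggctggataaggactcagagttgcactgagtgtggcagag
Nr4a1: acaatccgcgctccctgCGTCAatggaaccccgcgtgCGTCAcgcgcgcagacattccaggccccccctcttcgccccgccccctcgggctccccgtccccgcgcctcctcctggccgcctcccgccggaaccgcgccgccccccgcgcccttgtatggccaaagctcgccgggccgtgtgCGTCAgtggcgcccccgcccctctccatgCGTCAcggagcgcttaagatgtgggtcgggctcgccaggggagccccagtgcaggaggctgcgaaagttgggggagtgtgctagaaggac
Nr4a2: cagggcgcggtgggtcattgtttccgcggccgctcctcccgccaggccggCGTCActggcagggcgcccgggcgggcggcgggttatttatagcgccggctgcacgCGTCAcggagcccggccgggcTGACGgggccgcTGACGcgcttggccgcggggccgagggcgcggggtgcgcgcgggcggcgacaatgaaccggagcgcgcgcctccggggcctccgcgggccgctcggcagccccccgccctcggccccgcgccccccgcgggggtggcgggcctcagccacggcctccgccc
Nr4a3: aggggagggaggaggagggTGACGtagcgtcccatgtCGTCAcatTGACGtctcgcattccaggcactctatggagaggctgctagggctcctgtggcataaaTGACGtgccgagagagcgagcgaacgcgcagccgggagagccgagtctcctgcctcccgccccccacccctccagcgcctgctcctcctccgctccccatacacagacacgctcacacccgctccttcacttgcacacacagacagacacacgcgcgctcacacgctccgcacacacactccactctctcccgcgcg

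The TGACG motif was present in 9 of the 12 promoter entries of these genes, 3 of the 9 being overlapping Egr2 entries, against 20.8% of all 32851 entries. It was in at least 1 entry of 7 of the 8 genes. Because the motif was picked after these sequences had been seen, its shares and copy numbers here are a description and test nothing. Each NR4A promoter held 4 copies, a number reached by 0.231% of all promoters. Counted from the start site, they began at -233, -213, -69 and -40 in Nr4a1, at -200, -144, -123 and -111 in Nr4a2, and at -231, -213, -205 and -147 in Nr4a3. Fos held 2, at -129 and -66, Fosb 1 at -60 and Junb 1 at -106. Of the 5 Egr2 entries, 3 that overlap each other held 2 copies each, the first of them at -111 and -55, and the other entries held none. Jun held none in this window. The members' promoters were 56% to 81.7% G and C, against a median of 52.7% over all promoters, and the part of base composition in these shares was not tested. The full cAMP response element TGACGTCA (1.79% of promoters), the AP-1 motif TGANTCA (7.81%), the NR4A motif AAAGGTCA (1.51%) and the EGR motif GCGTGGGCG (0.612%) were in none of the 8 windows. The CArG box, bound by the serum response factor, was in 1.63% of promoters and in that of Egr2. A match describes letters only, and the absence of one says nothing of sites outside these 300 bases.

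Other genes of the same pathways were read from fixed lists. Of 14 other immediate early genes, 2 rose and 5 fell in anti-CD3-CD28 Treg cells and 0 rose and 2 fell in OX40L-JAG1 Treg cells, each against control Treg cells. In Teff cells 1 rose and 6 fell with anti-CD3-CD28 and 1 rose and 9 fell with OX40L-JAG1, against control Teff cells. The median changes were -0.59, -0.51, -0.57 and -1.08 in that order. Among all genes the share that rose in these comparisons was 8.08%, 0.996%, 5.44% and 20%, and the share that fell was 1.97%, 0.559%, 9.75% and 26.9%. With both OX40L-JAG1 Teff arrays left out 2 of the 14 rose and 7 fell in anti-CD3-CD28 Treg cells, 0 rose and 4 fell in OX40L-JAG1 Treg cells, and 2 rose and 7 fell in anti-CD3-CD28 Teff cells. Of all genes, 14.8%, 3.4% and 12.5% then rose and 6.75%, 2.01% and 16.5% fell. Dusp1, a phosphatase that switches off MAP kinases, fell with anti-CD3-CD28 by 1.35 ± 0.36 in Treg and by 1.89 ± 0.36 in Teff cells. Btg2, which restrains proliferation, fell by 1.62 ± 0.22 in anti-CD3-CD28 Treg cells and by 1.05 ± 0.22 in OX40L-JAG1 Treg cells. Zfp36, which destabilises cytokine mRNAs, fell in OX40L-JAG1 Teff cells by 2.55 ± 0.21. Ier3, a survival factor, went the opposite way, and rose by 2.38 ± 0.30 in anti-CD3-CD28 Treg cells, by 2.24 ± 0.30 in anti-CD3-CD28 Teff cells and by 1.33 ± 0.30 in OX40L-JAG1 Teff cells. Its mean was 4.87 in control Treg and in control Teff cells, a level that may be background. Csrnp1 rose by 1.58 ± 0.22 in anti-CD3-CD28 Treg cells and fell by 1.17 ± 0.22 in OX40L-JAG1 Teff cells.

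The other AP-1 subunits and partners did not follow Fos and Jun. Of 7 measured genes of this list of 8, none fell in the comparisons with control but Jund, by 0.89 ± 0.25 in OX40L-JAG1 Teff cells. Fosl2, a FOS relative expressed later after stimulation, rose by 2.17 ± 0.17 in anti-CD3-CD28 Treg cells, by 0.90 ± 0.17 in OX40L-JAG1 Treg cells and by 0.87 ± 0.17 in anti-CD3-CD28 Teff cells. Batf, which pairs with JUN proteins and IRF4, rose by 1.69 ± 0.43 in anti-CD3-CD28 Treg cells. Atf3 and Batf2 rose by 0.79 ± 0.25 and 0.58 ± 0.21 in OX40L-JAG1 Teff cells, and Maff by 0.85 ± 0.21 in anti-CD3-CD28 Teff cells. The control Teff means of Batf2 (4.89) and Maff (4.94) were close to 4.87, the lowest array median, a level that may be background. Leaving out both OX40L-JAG1 Teff arrays, 3 of the 7 rose in anti-CD3-CD28 Treg cells, 1 in OX40L-JAG1 Treg cells and 5 in anti-CD3-CD28 Teff cells. The shares of all genes that then rose were 14.8%, 3.4% and 12.5%. Jund was then lower in anti-CD3-CD28 Teff cells (-0.80, adjusted p = 0.00613), where 16.5% of all genes fell. The EGR corepressor Nab1 rose by 1.13 ± 0.20 in anti-CD3-CD28 Treg cells and fell by 1.48 ± 0.20 in OX40L-JAG1 Teff cells. Nab2, the other corepressor, fell by 0.79 ± 0.22 in anti-CD3-CD28 Teff cells and by 0.68 ± 0.22 in OX40L-JAG1 Teff cells.

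Of 8 measured heat shock genes, which are induced by heat and handling as well as by growth signals, 2 fell in anti-CD3-CD28 Treg cells, 3 in OX40L-JAG1 Treg cells, 4 in anti-CD3-CD28 Teff cells and 7 in OX40L-JAG1 Teff cells, each against the control cells of its type. None passed in the other direction, while the shares of all genes that fell were 1.97%, 0.559%, 9.75% and 26.9%. Leaving out both OX40L-JAG1 Teff arrays, 1 rose and 4 fell in anti-CD3-CD28 Treg cells, and 0 rose and 5 fell in OX40L-JAG1 Treg cells. In anti-CD3-CD28 Teff cells 2 rose and 6 fell. The risen ones were Hspa8 in Treg cells and Hspd1 and Hspe1 in Teff cells. The shares of all genes that then rose were 14.8%, 3.4% and 12.5%, and 6.75%, 2.01% and 16.5% fell. Hspa1a, the inducible HSP70, fell by 3.54 ± 0.23 in OX40L-JAG1 Treg cells and by 3.77 ± 0.23 in OX40L-JAG1 Teff cells. In both anti-CD3-CD28 groups its mean lay below 4.87, a level that may be background, and its change there is a bound: at least 6.01 log2 units lower in Treg cells and at least 6.73 lower in Teff cells. Its near-identical copy Hspa1b fell by 3.34 ± 0.38 and 4.18 ± 0.38 with OX40L-JAG1 and was at least 6.39 and 7.38 log2 units lower with anti-CD3-CD28, in Treg and Teff cells in that order, and probes of the pair may not separate them. Control cells were processed fresh and all others after culture, and the part of handling in the fall of the factors was not tested.

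**Figure D4:**
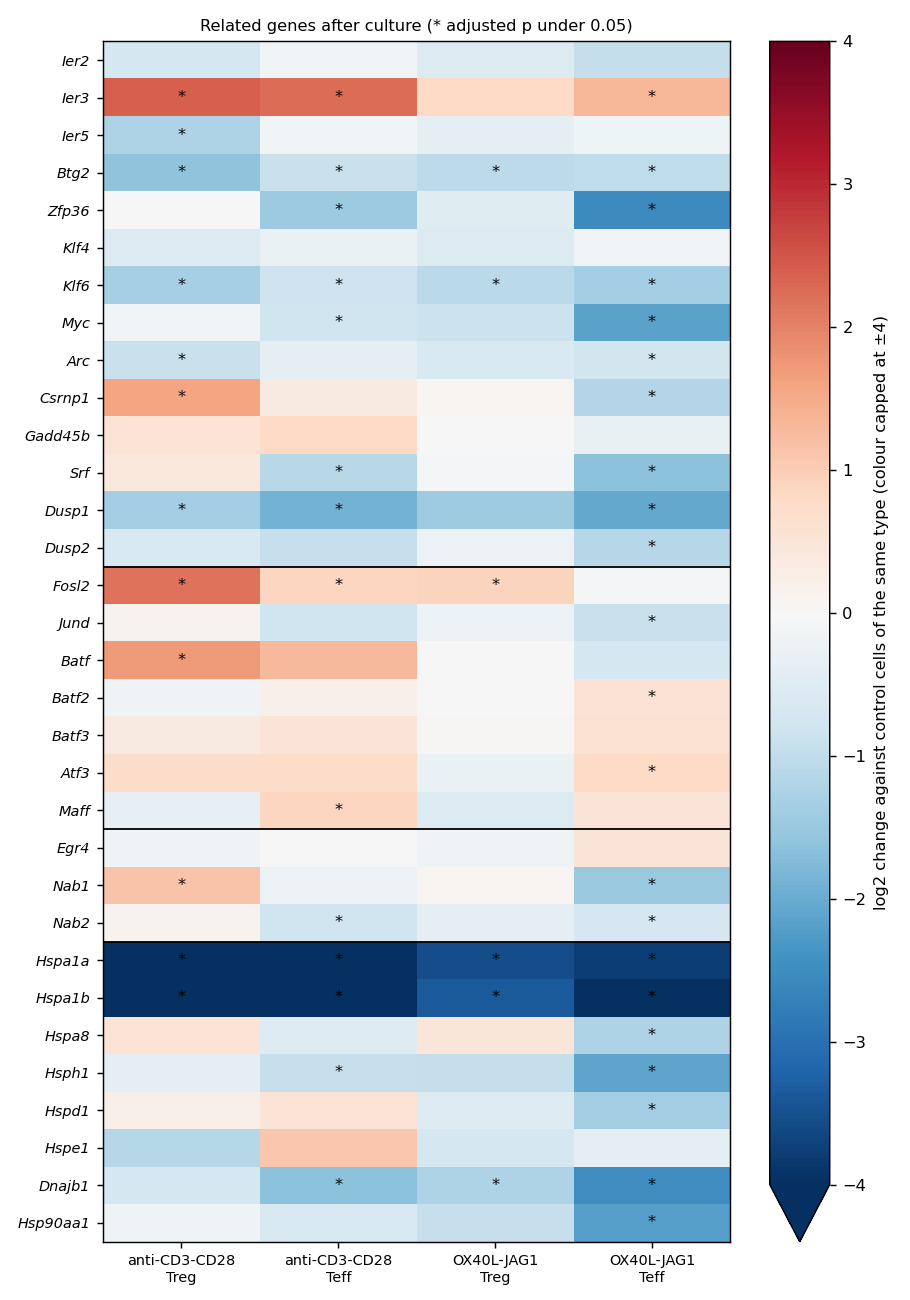
Log2 change against control (colour, capped at -4 and 4) of the other immediate early genes, AP-1 partners, EGR corepressors and heat shock genes in the 4 cultured groups, with an asterisk where the limma test passed. Hspa1a and Hspa1b have the most negative changes, past the end of the colour scale in both anti-CD3-CD28 groups, while Fosl2 and Ier3 rose in 3 of the 4 groups.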

How the data were processed

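Total RNA of 12 sorted mouse T cell samples was measured on Affymetrix arrays. The deposited values are log2 intensities that the authors summarised with RMA, per the submitters' processing notes (version not given in the sources used here), and were used as deposited. Of 41345 rows, 23521 carried exactly 1 gene symbol. The 1814 rows with several symbols and the 16010 with none were left out. Where a gene had several rows (1082 genes), the brightest on average was kept, giving 22180 genes. Symbols were updated by Entrez ID for 23328 rows.

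All groups were fitted together in limma 3.58.1 (R 4.3.3; lmFit and eBayes, 6 residual degrees of freedom) as 9 comparisons of 2 groups and 2 interactions. The procedure was tested on simulated data. The number of arrays limits the precision. All 10 factors are named throughout, and of each gene list up to 4 members with the largest change past the threshold in a comparison, whose values in other groups may be added. The likeness of genes was measured by Pearson's r among named genes with a range of at least 1. The members, lists and rules were chosen with earlier results of these data known. The replicate numbers were checked for pairing: 15 correlations of replicate deviations between groups ran from -0.0693 to 0.182, so the numbers were not taken to pair the samples.

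Alternatives were a replicate block, quantile normalization, array weights, dim genes left out (11657 kept), averaging a gene's rows, each array left out in turn, and both OX40L-JAG1 Teff arrays left out.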

Additional observations from a re-analysis of the deposited data

Results flagged for a closer look

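The difference between the responses of Treg and Teff cells, tested as an interaction in limma, passed for 4 factors in each treatment. Of all genes, 10.1% with anti-CD3-CD28 and 21.3% with OX40L-JAG1 had a positive interaction that passed. With anti-CD3-CD28 the interaction was 2.45 for Jun, 1.57 for Fos, 1.47 for Nr4a3 and 1.12 for Nr4a1. With OX40L-JAG1 it was 2.12 for Jun, 1.21 for Nr4a3, 1.14 for Nr4a1 and 1.13 for Fos. All 8 values are on the log2 scale and positive, which means that the change from fresh to cultured cells was more negative in Teff than in Treg cells. The OX40L-JAG1 values rest on the Teff arrays that stand apart, and both sets of values share the control arrays. After quantile normalization Jun passed in both treatments and Fos with anti-CD3-CD28 only (adjusted p = 0.0436), while Nr4a1 and Nr4a3 passed in neither.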

How the results depend on the processing

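The number of the 10 factors called changed with the processing. For anti-CD3-CD28 Treg against control Treg cells it was 5, and 3 with the replicate block. For OX40L-JAG1 Treg against control Treg cells it was 5, and 8 without both OX40L-JAG1 Teff arrays. For anti-CD3-CD28 against OX40L-JAG1 Treg cells it was 0, and 1 with the block, 5 without those arrays, 5 with array weights and 3 with dim genes left out. For anti-CD3-CD28 against OX40L-JAG1 Teff cells it was 3, and 0 with array weights. For control Treg against control Teff cells it was 1, and 4 without those arrays, 0 after quantile normalization and 7 with array weights. The anti-CD3-CD28 interaction had 4, and 2 after quantile normalization. The OX40L-JAG1 interaction had 4, all positive, and 2 after quantile normalization (Jun positive, Junb negative) or with array weights. The causes were not tested. The block changed no other count by over 1.5 times, but in OX40L-JAG1 Treg cells Jun gained and Egr3 lost the call.

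With each array left out in turn the counts ranged as follows. Against control Treg cells they were 2 to 6 for anti-CD3-CD28 and 1 to 8 for OX40L-JAG1 Treg cells, and 0 to 5 between the cultured Treg groups. Against control Teff cells they were 4 to 9 for anti-CD3-CD28 and 8 to 9 for OX40L-JAG1 Teff cells, and 0 to 5 between the cultured Teff groups. Between Treg and Teff cells they were 5 to 6 with anti-CD3-CD28, 5 to 7 with OX40L-JAG1 and 0 to 4 in control cells. For the interactions they were 1 to 6 with anti-CD3-CD28 and 2 to 7 with OX40L-JAG1. A group left with 1 array was assumed to vary like the others.

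Quantile normalization reversed 4 values that passed the test with or without it, all of Junb. They became 0.30 for OX40L-JAG1 Teff against control Teff cells, -0.00803 for anti-CD3-CD28 against OX40L-JAG1 Teff cells, -0.67 for OX40L-JAG1 Treg against Teff cells and -1.10 for the OX40L-JAG1 interaction. The shift of each gene's log2 change under quantile normalization had a median over all genes of at most 0.181, in the anti-CD3-CD28 interaction. Of the 110 values (10 factors in 11 comparisons), 87 stayed called or stayed uncalled under this normalization, 15 lost the call and 4 gained it. A change of sign where neither fit passed was not counted as reversed and is among the 87. Nr4a3 in anti-CD3-CD28 Treg against control Treg cells was such a value (0.23 as deposited, -0.13 after quantile normalization). The mean of all rows changed none, since each factor has 1 row. Without both OX40L-JAG1 Teff arrays the 4 comparisons that use them could not be made.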

Other observations

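Genes driven by EGR or NR4A factors or by the T cell receptor did not follow the factors as a block. Of 12 such genes, 4 rose and 2 fell in anti-CD3-CD28 Treg cells and 1 rose in OX40L-JAG1 Treg cells, against control Treg cells. In Teff cells 3 rose and 6 fell with anti-CD3-CD28 and 8 fell with OX40L-JAG1, against control Teff cells. Of all genes, 8.08%, 0.996%, 5.44% and 20% rose and 1.97%, 0.559%, 9.75% and 26.9% fell in these comparisons. Without both OX40L-JAG1 Teff arrays 5 rose and 3 fell in anti-CD3-CD28 Treg cells, and 1 rose and 3 fell in OX40L-JAG1 Treg cells. In anti-CD3-CD28 Teff cells 3 rose and 6 fell. The shares of all genes that then rose were 14.8%, 3.4% and 12.5%, and 6.75%, 2.01% and 16.5% fell. Ndrg1, an EGR target in unresponsive T cells, rose by 3.69 ± 0.18 in anti-CD3-CD28 Treg, by 1.54 ± 0.18 in OX40L-JAG1 Treg and by 1.88 ± 0.18 in anti-CD3-CD28 Teff cells. Tnfrsf9, which encodes the costimulatory receptor 4-1BB, rose by 2.48 ± 0.18 in anti-CD3-CD28 Treg and by 2.95 ± 0.18 in anti-CD3-CD28 Teff cells. Tox, an NR4A-linked factor of exhausted T cells, fell by 1.00 ± 0.18 in anti-CD3-CD28 Treg cells, by 2.79 ± 0.18 in anti-CD3-CD28 Teff cells and by 2.18 ± 0.18 in OX40L-JAG1 Teff cells. Cd5, whose level tracks receptor signalling, fell by 1.55 ± 0.18 in anti-CD3-CD28 Teff and by 1.97 ± 0.18 in OX40L-JAG1 Teff cells.

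Between cell types, 8 of the 12 were higher in Treg than in Teff cells with anti-CD3-CD28 and 11 with OX40L-JAG1, where 9.03% and 24.6% of all genes were higher. In control cells 3 were higher and 1 lower, where 3.85% of all genes were called. The OX40L-JAG1 count rests on the Teff arrays that stand apart. Without those arrays 9 were higher with anti-CD3-CD28, where 18.2% of all genes were higher. In control cells 4 were then higher and 1 lower, where 14.5% of all genes were called. Ikzf2, which encodes the Treg factor Helios, differed by 3.32 ± 0.26, 3.39 ± 0.26 and 3.40 ± 0.26 in these 3 settings. Cd69, an early activation marker, differed by 1.09 ± 0.30 with anti-CD3-CD28 and by 1.86 ± 0.30 with OX40L-JAG1. The adjusted p of the values named was under the threshold in limma.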
